A study of Mus musculus with 9 samples.

Results

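The 10 genes described here encode transcription factors and cofactors at the centre of blood formation: Gata2, Tal1, Lyl1, Lmo2, Gfi1b, Fli1, Erg, Runx1, Spi1 and Cebpa. They were chosen by symbol as a fixed set of 10 of the 38215 genes in the table. Spi1 stands there under its older symbol Sfpi1 and was matched by its Ensembl identifier. All 10 passed the filter on low counts, in a test across 14944 genes. RNA was sequenced from the bone marrow of C57BL/6J mice, all with Jak2V617F, an activating mutation of the kinase Jak2 found in myeloproliferative neoplasms, and all treated with tamoxifen. The cells were sorted as Lineage- Sca1+ Kit+ (LSK), the fraction with stem cells and multipotent progenitors, and as double positive for GFP and mCherry. The EV group has 5 samples (m1 to m5, read here as mouse numbers) with Jak2V617F as the whole genotype, and the labels do not say what EV stands for. The sgZrsr2 group has 4 samples (m1, m2, m3 and m5) with the genotype Jak2V617F-sgZrsr2, described in the design text as having lost Zrsr2, a minor spliceosome factor. Ages, the promoter or Cre behind the Jak2 allele and the sequence of the guide are not given in the sources used here.

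As background, these factors work in shared complexes. Gata2 binds GATA motifs through zinc fingers. Tal1 and its close relative Lyl1 are basic helix-loop-helix proteins that bind E-boxes together with E proteins, and Lmo2 joins them to GATA factors and to Ldb1 without binding DNA itself. Runx1 binds DNA through its Runt domain with Cbfb as its partner, and Fli1, Erg and Spi1 (PU.1) are ETS factors. Gfi1b is a zinc finger repressor that works with Kdm1a and Rcor1 and is needed in megakaryocyte and erythroid cells. Spi1 and Cebpa, a basic leucine zipper protein, direct cells to the granulocyte and monocyte lineages, while Gata2, Tal1, Fli1 and Gfi1b are also factors of the megakaryocyte and erythroid side.

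The libraries held 23238264 to 45585531 expected counts, and the 10 genes had 94 to 26007 counts per library, so even the scarcest reading, Gfi1b in EV m3, rested on 94 counts. Zrsr2 was lower in all 4 sgZrsr2 libraries (31.7 to 44.4 CPM, counts scaled to library size with TMM factors) than in all 5 EV libraries (50.6 to 62.2 CPM). This is a log2 fold change of -0.46 (SE 0.12; edgeR adjusted p = 0.714). Of the gate's own markers, Kit was at 247 to 632 and Ly6a (Sca1) at 14.8 to 49.3 CPM. Among genes outside the gate's definition, Cd34 was at 544 to 705 and Flt3 at 227 to 504 CPM. Procr was at 10.4 to 23.5 and Slamf1 at 4.06 to 9.1 CPM. T cell markers were near 0: Cd3e, Cd3g and Cd3d summed to at most 0.233 CPM. B cell markers (4 genes) summed to 2.43 to 25.7 CPM with EV and 3.52 to 13.1 CPM with sgZrsr2. 3 libraries, EV m5, sgZrsr2 m3 and sgZrsr2 m5, stood apart in most erythroid and megakaryocyte markers, though not in Hbb-bt, Itga2b or Ppbp. In these 3, Car1 reached 25.4, 39.3 and 35.5 CPM, and for Pf4 the values were 22.02, 27.9 and 37.4 CPM. In the other 6 libraries Car1 was at most 0.422 and Pf4 at most 3.43 CPM. Hbb-bt was lowest in sgZrsr2 m5 (5.59 CPM), followed by EV m5 (8.06 CPM). In sgZrsr2 m3 (15.4 CPM) it lay within the range of the other 6 libraries (13.5 to 46.2 CPM). Itga2b was higher in EV m4 (263 CPM) and sgZrsr2 m1 (235 CPM) than in EV m5 (199 CPM) or sgZrsr2 m3 (222 CPM). The differences of the 10 genes and the medians of the related gene lists are given with and without those 3 libraries that stood apart.

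Promoter sequences are shown for the members that varied most between libraries. Windows from 250 bases before to 50 bases after a RefSeq start site (GRCm38.p6) were found for 7 of the 10 genes, 12 windows in all. The 4 printed below belong to Gfi1b, Tal1, Gata2 and Runx1, the members with the widest ranges. Each is written 5′ to 3′ on the gene's own strand. Capitals mark matches, on either strand, to GATAA (the core bound by GATA factors), CAGNTG (an E-box form), GGAAG (a common ETS core) and TGNGGT. The last is a loose form of the Runt core TGYGGT, in which Y is C or T. Where matches overlap they share the capitals.
Gfi1b, chr2:28621933-28622232, minus strand: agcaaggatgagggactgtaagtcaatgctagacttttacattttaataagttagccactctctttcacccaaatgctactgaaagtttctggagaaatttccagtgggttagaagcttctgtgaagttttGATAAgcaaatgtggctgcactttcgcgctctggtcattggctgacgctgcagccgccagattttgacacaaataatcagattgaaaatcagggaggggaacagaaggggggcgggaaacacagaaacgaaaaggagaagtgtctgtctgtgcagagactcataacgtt
Tal1, chr4:115056176-115056475, plus strand: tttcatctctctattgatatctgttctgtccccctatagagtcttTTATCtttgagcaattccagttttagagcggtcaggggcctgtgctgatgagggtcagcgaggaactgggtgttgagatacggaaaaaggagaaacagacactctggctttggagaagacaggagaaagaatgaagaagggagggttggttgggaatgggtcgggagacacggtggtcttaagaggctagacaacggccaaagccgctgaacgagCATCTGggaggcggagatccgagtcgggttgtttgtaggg
Gata2, chr6:88193641-88193940, plus strand: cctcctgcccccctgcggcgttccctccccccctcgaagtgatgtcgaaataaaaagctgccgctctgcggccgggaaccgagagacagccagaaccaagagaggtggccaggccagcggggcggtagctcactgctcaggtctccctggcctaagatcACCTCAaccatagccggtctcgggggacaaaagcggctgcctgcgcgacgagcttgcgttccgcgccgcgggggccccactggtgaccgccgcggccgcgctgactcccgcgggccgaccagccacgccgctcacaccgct
Runx1, chr16:92826025-92826324, minus strand: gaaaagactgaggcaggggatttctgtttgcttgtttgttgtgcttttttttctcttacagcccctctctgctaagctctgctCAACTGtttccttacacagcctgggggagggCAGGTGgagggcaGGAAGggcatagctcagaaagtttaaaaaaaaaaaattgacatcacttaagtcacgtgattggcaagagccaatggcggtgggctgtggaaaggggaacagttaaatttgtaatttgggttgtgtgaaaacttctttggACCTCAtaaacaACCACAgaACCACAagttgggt
The Gfi1b window holds 1 GATAA match, 119 bases before the start. The Tal1 window holds 1 GATAA match, 205 bases before the start, and 1 E-box match, which begins at base 11 after the start. The Gata2 window holds 1 TGNGGT match, 91 bases before the start, which reads TGAGGT and so is not a TGYGGT match. The Runx1 window, at the upstream start of that gene, holds 3 TGNGGT matches, with 2 E-box matches and 1 ETS match further up. The 3 begin at bases 17, 29 and 37 of the transcript, and the match at base 17 reads TGAGGT. Of 32851 RefSeq windows of the same length, 25.4% hold GATAA, 51.4% CAGNTG, 71.4% GGAAG and 45.8% TGNGGT. Of the 12 windows of these genes, 3 hold GATAA, 6 CAGNTG, 5 GGAAG and 6 TGNGGT. Matches to the narrower TGYGGT were not counted. A match is a run of letters and no evidence of binding. Gata2, Tal1 and Runx1 have further starts, which gene totals do not tell apart.

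Set per kilobase of exon (the union of exons in GENCODE M21), so that genes can be compared, Lmo2 was the most abundant of the set, at 228.5 ± 37.8 CPM per kb (SD, n = 9 libraries). Its lowest library (176.9) lay above the highest of every other member. Lyl1 followed at 109.0 ± 18.6, then Cebpa at 73.55 ± 17.8, Spi1 at 69.77 ± 10.4, Gata2 at 50.77 ± 11.9 and Erg at 42.96 ± 5.04 CPM per kb. The ranges of neighbours from Lyl1 down to Erg overlapped: Lyl1 exceeded Cebpa in 8 of 9 libraries, Cebpa exceeded Spi1 in 6, Spi1 exceeded Gata2 in 6 and Gata2 exceeded Erg in 7. The lowest library of Erg (35.41 CPM per kb) lay above the highest of Fli1 (29.40), but the highest of Tal1 (36.26) reached into the range of Erg. Fli1 (24.26 ± 3.71) and Tal1 (24.21 ± 6.41) were level, with Fli1 higher in 5 of 9 libraries, and Runx1 stood at 13.95 ± 3.71 and Gfi1b at 11.54 ± 9.04 CPM per kb. Exon unions are longer than single transcripts, above all for Runx1 (12025 bases), so its level per kb is a low estimate. The median over 14708 tested genes with a length was 5.846 CPM per kb. Lmo2 was above 98.4% of those genes and Gfi1b above 67.5%.

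Between the groups, edgeR's quasi-likelihood fit placed none of the 10 genes under an adjusted p of 0.05 (0.714 to 0.953), nor any other gene (0% of the 14944 tested). Over all genes DESeq2 called 16, none of them a member, and limma-voom with quality weights called 0. At an unadjusted p under 0.05, 2 of the 10 were higher with sgZrsr2, Fli1 and Gata2, and 0 were lower; over all genes tested, 3.87% were higher and 2.98% lower. DESeq2 added Tal1 to these and limma-voom added Runx1 and Lyl1, both lower. Fli1 alone had groups that did not overlap, 1 of 10, where 3.06% of all genes tested had such groups. The log2 fold change was above 0 in 6 members and below 0 in 4, where 48.5% of all genes tested were above 0. The median was 0.15, against -0.01 over all genes tested. Gata2, Tal1, Fli1, Lmo2, Erg and Gfi1b had positive values, of which Lmo2, Erg and Gfi1b turned negative in limma-voom, and Spi1, Cebpa, Lyl1 and Runx1 had negative ones.

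**Figure D1:**
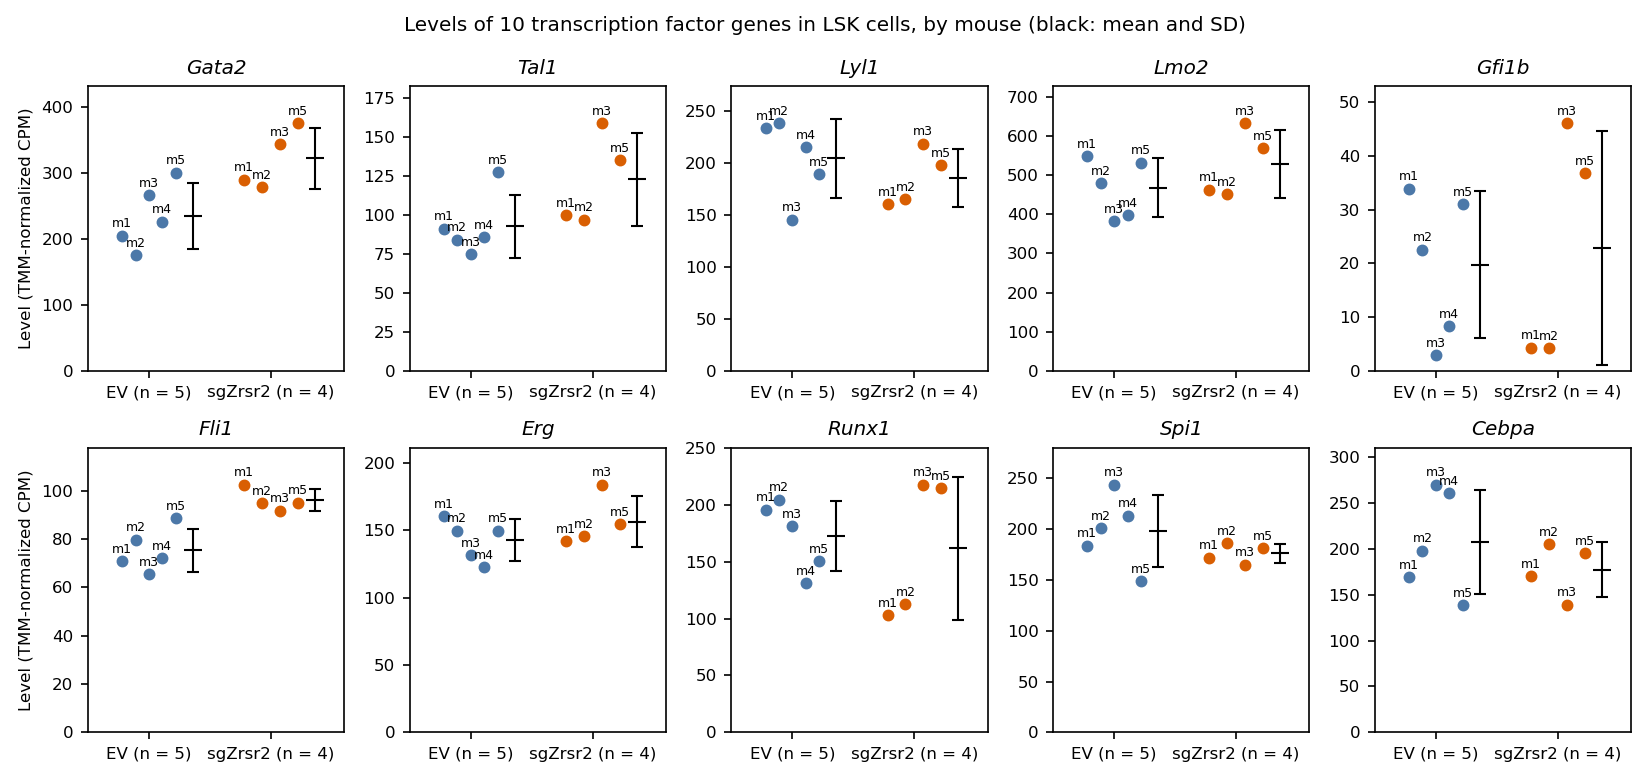
Levels of the 10 genes in TMM-normalized CPM (vertical axes, starting at 0) in each EV (blue, n = 5) and sgZrsr2 (orange, n = 4) library, labelled by mouse number, with the mean and SD of each group in black. All 4 sgZrsr2 libraries lie above all 5 EV libraries for Fli1 only, and Gfi1b runs from 2.93 to 46.1 CPM.

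Fli1 (ENSMUSG00000016087; chromosome 9, 32422208 to 32541389, minus strand, GRCm38), an ETS activator of platelet and endothelial genes, was at 70.9, 79.7, 65.4, 72.2 and 88.5 CPM in EV m1 to m5. It was at 102, 94.97, 91.8 and 95.02 CPM in sgZrsr2 m1, m2, m3 and m5. The sgZrsr2 values were close together and all above the highest EV value, which was that of EV m5. The means were 75.35 ± 8.96 CPM (SD, n = 5) and 96.07 ± 4.53 CPM (SD, n = 4), a log2 fold change of 0.35 (SE 0.11, 95% interval 0.12 to 0.58). The unadjusted edgeR p was 0.00728 and the adjusted p 0.714. With EV m5, sgZrsr2 m3 and sgZrsr2 m5 left out, so that Car1 and Pf4 were low in every library, the difference was 0.46, with an unadjusted edgeR p of 0.00617 and an adjusted p of 0.339. That set holds sgZrsr2 m1 and m2 alone, which lie close together in most members and are farthest apart in Cebpa (170 against 205 CPM). In bulk RNA, a change in the share of cells that express a gene and a change in its level per cell cannot be told apart.

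Erg, the nearest ETS relative of Fli1 in this set and a factor that stem cells need (ENSMUSG00000040732; chromosome 16, 95359169 to 95586593, minus strand), had group means closer to each other. It was at 160, 150, 131, 123 and 150 CPM in EV m1 to m5 and at 142, 145, 184 and 155 CPM in sgZrsr2 m1, m2, m3 and m5. The groups overlapped, with sgZrsr2 m3 the highest library and EV m4 the lowest. Its log2 fold change was 0.13 (SE 0.12, 95% interval -0.13 to 0.39; edgeR adjusted p = 0.783). It was 0.05 without sgZrsr2 m3, 0.08 without EV m4 and 0.04 with EV m5, sgZrsr2 m3 and sgZrsr2 m5 left out. Within a library, the log2 ratio of Erg to Fli1 was 0.92 ± 0.18 with EV (SD, n = 5) and 0.70 ± 0.22 with sgZrsr2 (SD, n = 4), and the groups overlapped. The ratio was lowest in sgZrsr2 m1 (0.47) and highest in EV m1 (1.18).

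Gata2 (ENSMUSG00000015053; chromosome 6, 88193891 to 88207030, plus strand), which stem and progenitor cells and mast cells depend on, was at 206, 176, 267, 227 and 301 CPM in EV m1 to m5. It was at 291, 279, 345 and 376 CPM in sgZrsr2 m1, m2, m3 and m5. EV m5 reached into the sgZrsr2 range, and the other 4 EV libraries lay below all 4 sgZrsr2 libraries. The means were 235.2 ± 49.5 CPM (SD, n = 5) and 322.7 ± 45.8 CPM (SD, n = 4), a log2 fold change of 0.46 (SE 0.16, 95% interval 0.09 to 0.82). The unadjusted edgeR p was 0.0185 and the adjusted p 0.714. With EV m5, sgZrsr2 m3 and sgZrsr2 m5 left out it was 0.39, at an unadjusted edgeR p of 0.0622, and with sgZrsr2 m5 alone left out 0.37, at 0.0611. Mast cell and basophil markers (Cpa3, Ms4a2, Fcer1a and Mcpt8) summed to 30.9 to 66.4 CPM with EV and 45.0 to 97.0 CPM with sgZrsr2. The sum was highest in sgZrsr2 m5 and next highest in EV m4, where Gata2 was at 227 CPM. All 4 of these markers had a median of at least 1 CPM over the libraries, none was at 0 in every library, and their part in the Gata2 values was not tested.

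Tal1, which blood formation requires and which erythroid and megakaryocyte cells keep (ENSMUSG00000028717; chromosome 4, 115056426 to 115071755, plus strand) was at 91.2, 84.2, 74.7, 85.7 and 128 CPM in EV m1 to m5. It was at 99.99, 96.9, 159 and 135 CPM in sgZrsr2 m1, m2, m3 and m5. The 3 highest libraries were sgZrsr2 m3, sgZrsr2 m5 and EV m5, and among the other 6 the sgZrsr2 libraries were the higher ones. The difference between groups was 0.41 in log2 (SE 0.19, 95% interval -0.01 to 0.82), with an unadjusted edgeR p of 0.0563 and an adjusted p of 0.714. Without sgZrsr2 m3 it was 0.26, and without EV m5 it was 0.55, with an unadjusted edgeR p of 0.00903 and an adjusted p of 0.519. With those 3 libraries left out together it was 0.24.

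Sums of megakaryocyte and erythroid markers were also higher in the libraries with the highest Tal1 and Gata2. The 7 megakaryocyte and platelet genes (6 with a median of at least 1 CPM, Ppbp below it) summed to 126 to 294 CPM with EV and 222 to 473 CPM with sgZrsr2. The 8 erythroid genes (4 with a median of at least 1 CPM) summed to 17.7 to 66.1 CPM with EV and 48.3 to 133 CPM with sgZrsr2. Both sums had their 4 EV libraries other than m5 at or below the level of EV m5, and both were highest in sgZrsr2 m3 and m5. Itga2b (109 to 319 CPM) made up much of the first sum. Hbb-bt made up most of the second in EV m1 to m4, at 17.0, 13.5, 14.3 and 20.4 CPM. The same held in sgZrsr2 m1 and m2, at 46.2 and 42.3 CPM. In EV m5, sgZrsr2 m3 and sgZrsr2 m5 it was at 8.06, 15.4 and 5.59 CPM, of sums of 66.1, 133 and 74.1 CPM. The platelet transcript Ppbp reached 1.73 CPM at most. The 6 neutrophil markers (5 with a median of at least 1 CPM) summed to 153 to 381 CPM with EV. With sgZrsr2 they summed to 235 to 434 CPM, and the sum was highest in sgZrsr2 m3 and EV m5. Elane (126 to 316 CPM) made up most of this sum in every library. S100a8, S100a9, Ngp, Camp and Ltf were each highest in sgZrsr2 m3 and EV m5. The part of these markers in the values of Tal1 and Gata2 was not tested.

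Lyl1 (ENSMUSG00000034041; chromosome 8, 84701457 to 84704715, plus strand) was at 234, 239, 146, 216 and 189 CPM in EV m1 to m5 and 160, 165, 219 and 198 CPM in sgZrsr2 m1, m2, m3 and m5. The groups overlapped and the lowest library was EV m3. Its difference was -0.14 in log2 (SE 0.16, 95% interval -0.49 to 0.21), with an unadjusted edgeR p of 0.403. Leaving out single libraries gave -0.08 (without EV m2) to -0.24 (without EV m3), and leaving out EV m5, sgZrsr2 m3 and sgZrsr2 m5 gave -0.35. The sources used here do not say whether reads were counted by strand, and Lyl1 lies wholly inside Nfix on the opposite strand, which leaves the Lyl1 values uncertain. Nfix itself was at 107 to 157 CPM, with a log2 fold change of -0.03 (edgeR adjusted p = 0.963). Within a library, the log2 ratio of Tal1 to Lyl1 was -1.15 ± 0.38 with EV and -0.62 ± 0.14 with sgZrsr2 (SD). Of the EV libraries only m5, at -0.57, reached the sgZrsr2 range of -0.77 to -0.46.

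Lmo2, the bridging protein of the Tal1 complex (ENSMUSG00000032698; chromosome 2, 103957986 to 103981878, plus strand), was at 548, 480, 383, 397 and 532 CPM in EV m1 to m5. It was at 463, 452, 633 and 568 CPM in sgZrsr2 m1, m2, m3 and m5. The groups overlapped, and the 2 highest and the 2 lowest libraries were sgZrsr2 m3 and m5 and EV m3 and m4. The log2 fold change was 0.18 (SE 0.15, 95% interval -0.16 to 0.51; edgeR adjusted p = 0.773). It was 0.08 without sgZrsr2 m3, 0.11 without EV m3 and 0.03 with EV m5, sgZrsr2 m3 and sgZrsr2 m5 left out. 4931422A03Rik overlaps Lmo2 on the other strand and was given 32.7 to 92.8 counts per library, against at least 10398 for Lmo2; how reads were shared between the pair was not tested.

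Gfi1b (ENSMUSG00000026815; chromosome 2, 28609450 to 28621982, minus strand) varied far more than the other members. It was at 33.9, 22.5, 2.93, 8.37 and 31.0 CPM in EV m1 to m5 and at 4.32, 4.24, 46.1 and 36.8 CPM in sgZrsr2 m1, m2, m3 and m5. Both groups held high and low libraries: EV m1, m2 and m5 and sgZrsr2 m3 and m5 were above 20 CPM, and EV m3 and m4 and sgZrsr2 m1 and m2 were below 10 CPM. From the lowest to the highest library was a 15.7-fold difference, or 3.95 in log2 CPM, a wider range than 96.4% of the genes tested. In the other 9 members the range in log2 CPM ran from 0.58 (Erg) to 1.10 (Gata2). The group difference was poorly determined, a log2 fold change of 0.22 with a 95% interval of -1.57 to 2.01 (SE 0.81, edgeR adjusted p = 0.953).

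High Gfi1b came both with and without Car1, which was at 0.0288 and 0.199 CPM in EV m1 and m2. With EV m5, sgZrsr2 m3 and sgZrsr2 m5 left out its log2 fold change turned to -1.97 (SE 0.86), with an unadjusted edgeR p of 0.0516 and an adjusted p of 0.454. It was also below 0 without sgZrsr2 m3 (-0.38), without sgZrsr2 m5 (-0.11) and without EV m3 (-0.06). Its relative Gfi1 is a repressor of the granulocyte and lymphoid side. The log2 ratio of Gfi1b to Gfi1 was -1.77 ± 1.31 with EV and -2.05 ± 1.98 with sgZrsr2 (SD), and the groups overlapped. It ran from -3.90 in sgZrsr2 m2 to -0.18 in sgZrsr2 m3. Gfi1b is part of this ratio, so a spread like that of Gfi1b was built in and says nothing of Gfi1. By the smallest root mean square difference of mean-centred log2 CPM over the 9 libraries, among 9620 genes, the nearest patterns to Gfi1b were those of Ppp1r26 (0.52), Slc14a1 (0.55) and Abcg1 (0.58), against a median of 1.51. These are distances in log2 units and say nothing of shared control.

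For Gata2 the nearest were AC129188.1 (0.10), Tjp1 (0.15) and Rab11b (0.15), and for Tal1 they were Tfr2 (0.07), Fry (0.09) and Heatr5a (0.11), against a median of 0.42 for each of these members. Tfr2, transferrin receptor 2, was at 62.9 to 107 CPM with EV and 92.1 to 130 CPM with sgZrsr2. Its lowest library was EV m3 and its highest sgZrsr2 m3, as for Tal1. Tfr2 was picked for its closeness to Tal1 in these same libraries, so this likeness was built in.

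**Figure D2:**
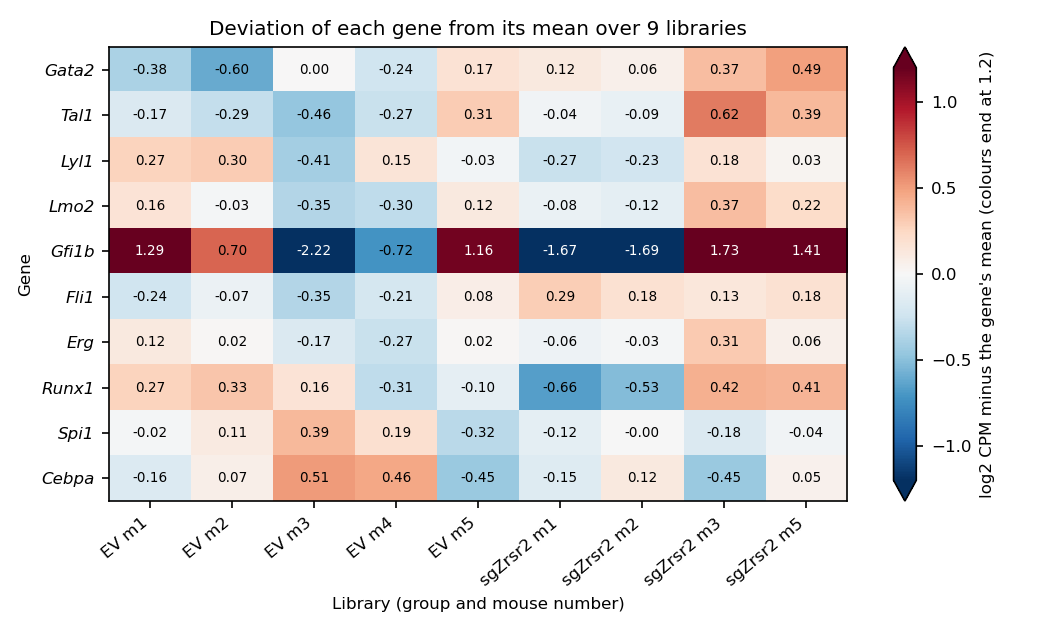
Log2 CPM (prior count 2) of each gene in each library minus the gene's mean over the 9 libraries, with the values written in the cells; the colour scale ends at 1.2. Gfi1b spans -2.22 (EV m3) to 1.73 (sgZrsr2 m3), Cebpa and Spi1 are above their means in EV m3 and m4 and below them in EV m5 and sgZrsr2 m3, and Tal1 has the opposite signs in those 4 libraries.

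Runx1 (ENSMUSG00000022952; chromosome 16, 92601467 to 92826066, minus strand), which is needed for blood stem cells to form and for megakaryocytes to mature, was at 196, 204, 181, 131 and 151 CPM in EV m1 to m5. It was at 103, 113, 217 and 215 CPM in sgZrsr2 m1, m2, m3 and m5. The sgZrsr2 group thus held both the 2 lowest and the 2 highest libraries, and its SD (62.7 CPM) was larger than that of EV (30.9 CPM). The log2 fold change was -0.09 (SE 0.25, 95% interval -0.63 to 0.45; edgeR adjusted p = 0.929). Its sign turned on single libraries: it was 0.07 without sgZrsr2 m1 and 0.05 without sgZrsr2 m2. With EV m5, sgZrsr2 m3 and sgZrsr2 m5 left out it was -0.72 (edgeR unadjusted p = 0.00597, adjusted p = 0.339). That fit sets 4 EV libraries against sgZrsr2 m1 and m2 alone, the libraries with the fewest counts. The gene has a distal and a proximal start, and gene totals do not tell transcripts from each apart.

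Spi1 (ENSMUSG00000002111; chromosome 2, 91082390 to 91115756, plus strand) was at 183, 201, 243, 213 and 149 CPM in EV m1 to m5 and at 172, 186, 165 and 181 CPM in sgZrsr2 m1, m2, m3 and m5. The EV libraries bracketed all the sgZrsr2 libraries. The difference was -0.17 in log2 (SE 0.14, 95% interval -0.47 to 0.13; edgeR adjusted p = 0.759). Cebpa (ENSMUSG00000034957; chromosome 7, 35119293 to 35121926, plus strand) had the same lowest and highest libraries, EV m5 and EV m3, at 169, 198, 270, 260 and 139 CPM in EV m1 to m5. It was at 170, 205, 139 and 195 CPM in sgZrsr2 m1, m2, m3 and m5. Its groups overlapped, with a log2 fold change of -0.22 (SE 0.20, 95% interval -0.68 to 0.23; edgeR adjusted p = 0.787). Leaving out single libraries gave -0.09 (without EV m3) to -0.26 (without EV m5) for Spi1 and -0.12 to -0.34, without the same libraries, for Cebpa. With EV m5, sgZrsr2 m3 and sgZrsr2 m5 left out the values were -0.23 and -0.25, and limma-voom gave -0.02 for Cebpa. The edgeR intervals hold changes of either sign, from 0.72-fold to 1.10-fold for Spi1 and from 0.63-fold to 1.17-fold for Cebpa. Monocyte markers (Csf1r, Ly6c2, Ccr2 and Ms4a6c) summed to 342 to 637 CPM with EV and 337 to 523 CPM with sgZrsr2. Among EV libraries the sum was highest in EV m3 and lowest in EV m4. Spi1 and Cebpa were next highest in EV m4 after EV m3, at 213 and 260 CPM. All 4 markers had a median of at least 1 CPM, and their part in the Spi1 and Cebpa values was not tested.

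**Figure D3:**
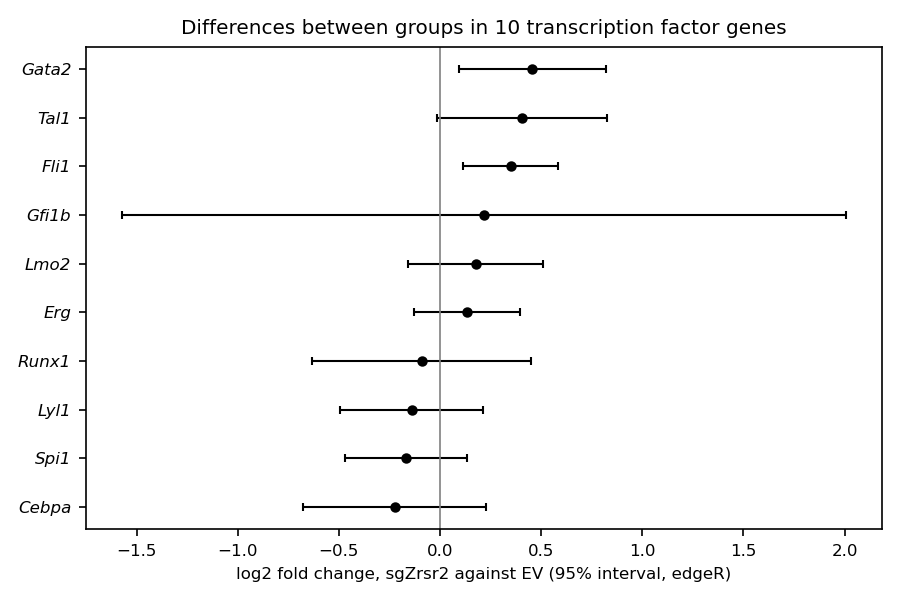
Log2 fold change of each gene, sgZrsr2 against EV, with its 95% interval from edgeR (horizontal axis), ordered by size. The intervals of Fli1 and Gata2 lie above 0 and the other 8 hold 0, with the widest for Gfi1b (-1.57 to 2.01).

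Ratios of a pair of genes within a library do not depend on how libraries are scaled. Gata2 is also a factor of the megakaryocyte and erythroid side, and Spi1 directs cells to the granulocyte and monocyte lineages. The log2 ratio of Gata2 to Spi1 was 0.17, -0.19, 0.14, 0.09 and 1.02 in EV m1 to m5. It was 0.76, 0.58, 1.07 and 1.06 in sgZrsr2 m1, m2, m3 and m5. EV m1 to m4 lay below all 4 sgZrsr2 libraries, and EV m5 lay among them, so the groups overlapped (0.24 ± 0.46 against 0.87 ± 0.24, SD). For Gata2 to Cebpa the values were 0.28, -0.17, -0.01, -0.20 and 1.12 with EV and 0.78, 0.44, 1.31 and 0.95 with sgZrsr2, the same order of groups with EV m5 again the exception. These ratios share Gata2, and both are given as values without a test.

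**Figure D4:**
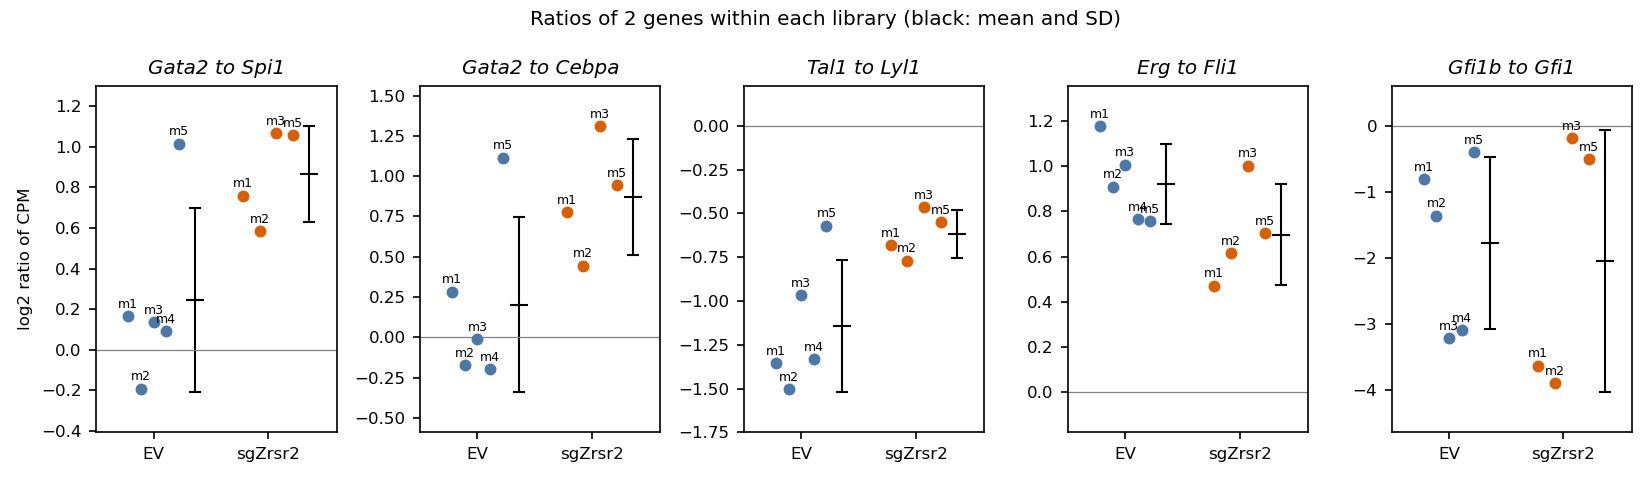
Log2 ratio of the CPM of 2 genes within each library (vertical axes, each with its own scale) for 5 pairs, EV in blue (n = 5) and sgZrsr2 in orange (n = 4), with mouse numbers, and the mean and SD in black. In the ratios of Gata2 to Spi1, Gata2 to Cebpa and Tal1 to Lyl1, EV m5 lies among the sgZrsr2 libraries and the other EV libraries lie below them.

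Genes that work with these factors were described by lists written from general knowledge. Their counts stand against 3.87% higher and 2.98% lower at an unadjusted p under 0.05, and 3.06% without overlap of the groups, over all genes tested. Of 21 complex partners, all were tested and 0 passed the adjusted threshold in edgeR. At an unadjusted p under 0.05, 2 were higher (Cbfa2t2 and Sin3a) and 1 lower (Hdac1), and the median log2 fold change was -0.06 against -0.01 over all genes tested. With EV m5, sgZrsr2 m3 and sgZrsr2 m5 left out the median was -0.08. The groups did not overlap for 4 of the 21, Cbfa2t2, Sin3a and Rcor1 (higher) and Hdac1 (lower). Cbfa2t2, a corepressor of the ETO family, was at 38.8 to 51.3 CPM with EV and 52.1 to 62.5 CPM with sgZrsr2 (log2 fold change 0.31, SE 0.11). Sin3a, a scaffold of histone deacetylase complexes, was at 115 to 146 and 147 to 157 CPM (0.24, SE 0.10). Id1 and Id2, inhibitors of E proteins, had the widest ranges, from 5.62 to 37.7 CPM and from 7.87 to 39.6 CPM, and both were highest in EV m3.

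Of 23 relatives from the same families, 22 were tested and 0 passed the adjusted threshold in edgeR (Tal2 was under the filter). Here 2 were higher at an unadjusted p under 0.05 (Elk4 and Elf4) and 1 lower (Lmo1), with a median log2 fold change of 0.04, or -0.02 with the same 3 libraries left out. The ETS genes Elk4 (57.7 to 70.8 against 75.8 to 87.9 CPM; log2 fold change 0.33, SE 0.10) and Elf4 (117 to 171 against 181 to 209 CPM; 0.38, SE 0.12) had groups that did not overlap, 2 of the 22 relatives tested. The other ETS genes of the list, and Erg and Spi1 among the members, had groups that overlapped. Gata1, the GATA factor that takes over from Gata2 as erythroid and megakaryocyte cells mature, ranged from 2.31 CPM in EV m3 to 38.8 CPM in sgZrsr2 m5, and was at 24.1 CPM in EV m5 and 26.2 CPM in sgZrsr2 m3. In the other 6 libraries Gata1 was at most 9.57 CPM. Spib, a relative of Spi1 in lymphoid and dendritic cells, ranged from 0.755 to 20.9 CPM.

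Of 17 other lineage and stem cell factors, all tested, 0 passed the adjusted threshold in edgeR, 4 were higher at an unadjusted p under 0.05 (Zbtb16, Nfe2, Meis1 and Mecom) and 0 lower, with a median log2 fold change of 0.08. That median was -0.11 with the 3 libraries left out, -0.00036 without EV m4 and 0.02 without sgZrsr2 m3. The groups did not overlap for 2 of the 17, Nfe2 and Meis1. Zbtb16 was at 8.93 to 16.6 CPM with EV and 13.5 to 19.98 CPM with sgZrsr2 (log2 fold change 0.71, SE 0.22). Nfe2, a factor for platelet formation, was at 171 to 207 and 223 to 258 CPM (0.30, SE 0.10). Klf1, the erythroid activator, and Irf4 had the widest ranges. Klf1 was at 8.81, 14.3 and 12.3 CPM in EV m5, sgZrsr2 m3 and sgZrsr2 m5 and at most 1.75 CPM elsewhere, and Irf4 ran from 1.44 to 19.2 CPM, both ends in EV libraries.

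Of 13 genes listed as targets of Spi1 and Cebpa, all tested, 0 passed the adjusted threshold in edgeR, 1 was higher at an unadjusted p under 0.05 (Elane, neutrophil elastase) and 0 lower, with a median log2 fold change of 0.17. Elane was at 126 to 223 CPM with EV and 218 to 316 CPM with sgZrsr2 (0.42, SE 0.18), while Spi1 and Cebpa themselves had negative values. Itgam and Ctsg varied most, and Ctsg was lowest in sgZrsr2 m3 (214 CPM) and highest in EV m4 (592 CPM). Of 15 genes listed as targets of Gata2, Tal1, Fli1 and Gfi1b, 12 were tested and 0 passed the adjusted threshold in edgeR. Of these 12, 11 had a positive log2 fold change, where 48.5% of all genes tested had one. The median was 0.50, the largest median of the 5 lists. At an unadjusted p under 0.05, 2 were higher, Nfe2 and Gp1ba. Gp1ba, a platelet glycoprotein, was at 4.11 to 7.94 and 6.04 to 12.1 CPM (0.70, SE 0.29). Pf4, Klf1, Epor, Gp1ba, Gp9 and Itga2b are in this list and also among the megakaryocyte and erythroid markers. All of them but Itga2b were highest in the 3 libraries named above, which hold 1 of the 5 EV and 2 of the 4 sgZrsr2 samples. Without those 3 libraries the median of the list was 0.19 and that of the Spi1 and Cebpa targets -0.05, which was 0.04 without sgZrsr2 m5 alone. Zfpm1, Nfe2, Klf1, Ikzf1 and Hhex stand in more than a single list.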

How the data were processed

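RNA from 9 samples of sorted LSK cells, 5 ng per library per the labels' protocols, was selected for polyadenylated molecules, amplified by PCR and sequenced. The authors deposited RSEM expected counts per Ensembl gene, not normalized; the submitters' processing notes name cutadapt 1.11, RSEM 1.2.30 and GRCm38, without roles or order. The aligner, annotation and strandedness are not given in the sources used here. RSEM divides reads that match several genes, so some counts are not whole. Coordinates are those of the deposited table.

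Counts were rounded, filtered with filterByExpr (minimum count 10, minimum total 15; 14944 of 38215 genes kept) and scaled with TMM. Groups were compared across all genes with edgeR 4.0.16 in R 4.3.3 (glmQLFit, glmQLFTest, Benjamini-Hochberg). The SE is the size of the log2 fold change over the square root of F. Libraries are the replicates. The labels number them m1 to m5 without saying that each is a separate mouse; if they are not, p-values measure only the spread between samples. Figures used matplotlib 3.10.9. Alternatives were RLE, upper-quartile and no scaling factors, 2 other filters, DESeq2 1.42.0, limma 3.58.1 (voom with quality weights), robust dispersion, unrounded counts, the mouse number as a block, sgZrsr2 m1 and m2 averaged, and leaving out libraries. The members, gene lists and tests were chosen with earlier results of these data known. Named genes are the members, Zrsr2, the 2 smallest p and 2 widest ranges of each list, the 3 nearest patterns (at least 10 CPM) of the 3 members with the widest range, and markers; genes named for a count of 5 or fewer or for an overlapping position were added after their values were seen. The mouse numbers were checked for pairing by correlations across genes, which cannot exclude pairing, and were not used as pairs in the main fit. Values of some listed genes are not reported here.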

Additional observations from a re-analysis of the deposited data

How the results depend on the processing

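The count of members past the adjusted threshold was 0 in all 13 alternatives and in all 9 fits without a library, where the fit without EV m4 stands in both. Fli1 was higher with sgZrsr2 at an unadjusted p of 0.00252 to 0.0342 in all of them, with log2 fold changes of 0.30 to 0.46. Gata2 was higher in all of them too (0.37 to 0.59), and its unadjusted p was above 0.05 only without sgZrsr2 m5 and without EV m5, sgZrsr2 m3 and sgZrsr2 m5 together. Members at an unadjusted p under 0.05 numbered 4 with limma-voom and quality weights (Lyl1 and Runx1 added, both lower) and 1 to 3 when each library was left out, 1 without sgZrsr2 m5. The count of all genes past the adjusted threshold was 16 in DESeq2 and 1 with sgZrsr2 m1 and m2 averaged (AC160990.2, named after its values were seen). Signs turned for Lmo2 (-0.0139), Erg (-0.00432) and Gfi1b (-1.34) in limma-voom with quality weights, for Gfi1b with EV m5, sgZrsr2 m3 and sgZrsr2 m5 left out (-1.97), and for Runx1 with sgZrsr2 m1 and m2 averaged (0.0593). Without single libraries Gfi1b ran from -0.38 to 0.56 and Runx1 from -0.267 to 0.0706. The causes were not tested.

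Deviations of same-numbered mice had correlations across genes of -0.227, -0.0904, -0.404 and 0.369 for m1, m2, m3 and m5. The highest correlation of any EV with any sgZrsr2 library was 0.523, for EV m5 with sgZrsr2 m3. The numbers are not taken as pairs, though this check rests on few libraries and cannot exclude pairing. With the mouse number as a replicate block over the 8 libraries that share one, Gfi1b turned to -0.59. In that edgeR fit 2 members had an unadjusted p under 0.05 (Fli1 0.34, Gata2 0.46), as without the block. The count of genes at an unadjusted p under 0.05 was 333 with the block and 1024 in all 9 libraries. In the same 8 libraries with no block it was 609. That comparison was added after the data were seen and is the same fit as the one without EV m4. The count was 2551 with limma-voom and quality weights and 1692 with the 3 libraries left out.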
